A study of Mus musculus with 46 samples.

Results

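Htt, the gene that carries the expanded CAG repeat in Huntington disease, lies on mouse chromosome 5, and 146 of its neighbours there were followed in glial progenitor cells of 2 mouse models of that disease. A gene was taken as a neighbour when it lay within 24.76 to 44.91 Mb of chromosome 5 (build GRCm38), which is 10 Mb either side of Htt (chr5:34761740-34912534), and had a mean of at least 0.5 CPM, the number of counts scaled to a common library total, over the 12 libraries of the zQ175 line at 12 weeks. The table held 53801 genes, of which 447 lay in that window. Of these, 298 were under the level minimum (108 had no counts at all), Htt and Insig1 were left out by name, and no potassium channel gene with a Kcn symbol reached the minimum. The 146 members were 129 protein-coding genes and 17 pseudogenes or noncoding transcripts. Of these, 103 lay on the lower-coordinate side of Htt and 43 on the other. By distance, 48 lay under 2 Mb from Htt, 56 lay at 2 to 5 Mb, and 42 lay at 5 to 10 Mb. The mean levels ranged from 0.503 to 672 CPM with a median of 15.8. Just inside the minimum stood Gm42798 at 0.503, Fgfbp1 at 0.541, Gm42867 at 0.550 and Jakmip1 at 0.556 CPM. Just outside stood Gm42551 at 0.485, Cgref1 at 0.476, Evc2 at 0.474 and 3110082J24Rik at 0.470 CPM. The minimum was taken over mutant and wild-type libraries together: 6 members (Gm21655, 5031410I06Rik, Gm42798, Jakmip1, Fgfbp1 and E430021H15Rik) reached it through the zQ175 libraries, with a wild-type mean under it, and none through the wild-type libraries alone.

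The mouse genes on both sides of Htt include those whose human counterparts lie next to HTT at the tip of the short arm of chromosome 4, among them Add1, Grk4, Fgfr3 and Nsd2. They belong to no single pathway: they encode an actin-spectrin linker, a receptor kinase, a growth factor receptor, histone-modifying enzymes and many others. In a knock-in mouse the altered Htt allele is inherited together with the stretch of chromosome around it, whereas a transgene is inherited with the stretch around its own insertion site.

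The libraries were RNA-seq of striatal cells sorted for an EGFP reporter of PDGFRA, the growth factor receptor that marks oligodendrocyte progenitors. Every mouse carried that reporter. zQ175 mice carry an expanded repeat inside the mouse Htt gene itself, and whether one or both copies were expanded is not given in the sources used here. R6/2 mice carry a transgene with a fragment of human HTT, under the human promoter, in addition to intact mouse Htt. Mutant and wild-type pools were compared within each line: zQ175 and wild type at 12 weeks (6 and 6 libraries), zQ175 and wild type at 1 year (5 and 4), R6/2 and wild type at 6 weeks (6 and 5), and R6/2 and wild type at 12 weeks (7 and 7). Each library was a pool of the striata of a litter's mice of 1 genotype, 3 to 4 mice each, or 4 to 8 at 1 year. Libraries held 23338185 to 49166260 counts.

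The labelled cell type was only partly borne out by its markers. The summed level of 11 progenitor markers was 2213 to 4373 CPM over all 46 libraries, of which Olig1 alone was 1179 to 2378 CPM. Pdgfra itself ranged from 0.346 CPM in a wild-type pool at 1 year to 103 CPM. The summed level of 11 markers of mature oligodendrocytes was far higher in every group. It was 101509 to 116133 CPM in wild type and 91116 to 111367 in zQ175 at 12 weeks, and 68524 to 90347 against 50601 to 59280 at 1 year. In the R6/2 line it was 133801 to 138139 in wild type and 65806 to 95980 in R6/2 at 6 weeks, and 96966 to 102346 against 36614 to 48111 at 12 weeks. The median log2 fold change of the 11 progenitor markers was -0.14 in zQ175 at 12 weeks and 1.98 at 1 year, with none called. It was -0.20 in R6/2 at 6 weeks and 1.14 at 12 weeks. The part of these shifts in the changes of members in zQ175 was not tested. In bulk samples, fewer cells of a type and less RNA per cell cannot be told apart. Of 9 neuronal markers, Rbfox3 was at 0 in 25 and Drd1 at 0 in 41 of the 46 libraries, while Tubb3 ranged from 23.8 to 174 CPM. In the R6/2 group at 12 weeks, 4 of 7 pools had Y-linked transcripts at or under 1 CPM, against 0 of 7 wild-type pools. Xist was at or under 1 CPM in 0 of 7 and 2 of 7. In the zQ175 line at 12 weeks Y-linked transcripts were that low in 0 of 6 zQ175 and 1 of 6 wild-type pools, and Xist in 1 and 2. At 1 year Y-linked transcripts were that low in 1 of 5 zQ175 and 0 of 4 wild-type pools. In R6/2 at 6 weeks they were that low in 1 of 6, and in 1 of 5 wild-type pools. The part of this in any result was not tested. One wild-type pool at 1 year, replicate 4, had the fewest counts and stood apart for several members, and for the members described at 1 year the test is also given without it.

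Htt served as the check of the labels. At 12 weeks its level was 9.05, 12.3 and 14.7 CPM (lowest, median and highest) in wild type and 3.44, 4.37 and 8.47 CPM in zQ175. At 1 year the 4 wild-type pools had 9.56, 9.02, 25.3 and 16.1 CPM, and the 5 zQ175 pools had 3.93, 1.78, 5.51, 14.4 and 2.90 CPM. The groups did not overlap at 12 weeks, and at 1 year zQ175 replicate 5 lay within the wild-type range. The log2 fold change was -1.28 ± 0.22 (standard error) at 12 weeks, adjusted p = 0.0412, and -1.33 ± 0.56 at 1 year, adjusted p = 0.393 (-0.98, adjusted p = 0.693, without wild-type replicate 4; edgeR quasi-likelihood test, Benjamini-Hochberg over all genes). The call at 12 weeks remained in 1 of 12 fits that each left out 1 library, with adjusted p from 0.00501 to 0.116. In R6/2, mouse Htt was called at neither age.

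Near Htt, few members differed between zQ175 and wild-type cells at 12 weeks. Of the 146 members, 4 rose and 1 fell at an adjusted p below 0.05 (edgeR quasi-likelihood test, Benjamini-Hochberg over all genes tested), which is 3.42% of members. Over all 14372 genes the share called was 0.0835%, or 12 genes (0.0487% higher and 0.0348% lower), so 5 of those 12 were members. By DESeq2 the calls were 8 of 146 members and 431 of 14372 genes, and the counts below are by edgeR. Of the 140 members whose wild-type mean alone reached the minimum, 3 rose and 1 fell, since 5031410I06Rik entered through its high zQ175 level and had to differ. None of the 48 members under 2 Mb from Htt was called, 1 of 56 at 2 to 5 Mb fell, and 4 of 42 at 5 to 10 Mb rose. All 4 that rose came from 1 cluster of repeated genes, described next, and outside it 0 of 130 members rose and 1 fell. At an unadjusted p below 0.05 stood 31 of 146 members (21.2%), against 14.9% of all genes. By distance these were 8 of 48 under 2 Mb (16.7%), 8 of 56 at 2 to 5 Mb (14.3%) and 15 of 42 at 5 to 10 Mb (35.7%, or 23.1% without the cluster). These counts take in members that entered through their zQ175 level in the same libraries, which favours a difference. The counts without them are not given here. The median log2 fold change was -0.03 over the members and -0.01 over all genes. The rest of chromosome 5 had 1 call in 796 genes (0.126%).

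**Figure D1:**
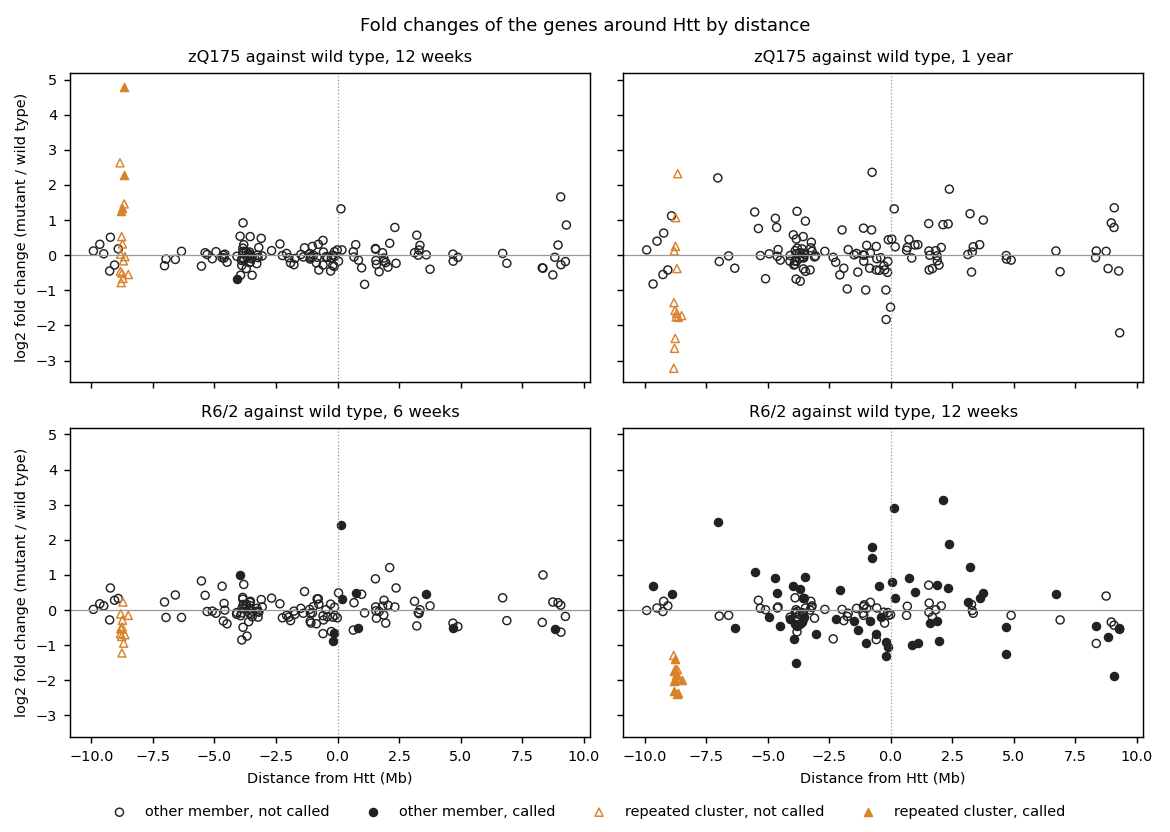
Log2 fold change of each member (mutant over wild type) against its distance from Htt in Mb, 1 panel for each comparison of genotype. Filled symbols passed an adjusted p below 0.05 and triangles are the 16 genes of the repeated cluster. The 4 filled triangles in the zQ175 panel at 12 weeks are the 4 members that rose, and in the R6/2 panel at 12 weeks 11 of 13 triangles are filled and lie below 0.

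The repeated cluster lay between Actr3b and Dpp6 at 25.92 to 26.26 Mb and was set apart after its values had been seen. It held 16 members. Of these, 13 resembled Speer4a, a gene of a rodent family expressed in testis: the other 12 had transcripts 94.8 to 97.5% identical to that of Speer4a. The other 3, Gm21168, Gm5067 and Gm6089, were annotated as processed pseudogenes and resembled Rrs1, a gene on chromosome 1 needed to assemble the large ribosomal subunit, with 95.2%, 94.8% and 93.5% identity. Because reads can match several copies, RSEM shares them between copies, and each value here is uncertain as to which copy it came from. In the cluster, 63 to 100% of a gene's 46 deposited values were not whole numbers (median 95.7%), against a median of 0% over the other members. The share of 125-base windows of a transcript found in no other transcript was 13.8% for 5031410I06Rik, the lowest of the cluster, and 89.4%, 88.4% and 100% for Gm21168, Gm5067 and Gm6089.

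How alike these copies are is shown by the promoters of Speer4a and of 5031410I06Rik, the member with the largest change in zQ175, taken from the RefSeq table of build GRCm38.p6. Each runs 5′ to 3′ on the minus strand from 250 bases before to 50 bases after the start of the gene, at chr5:26039456-26039755 and chr5:26105265-26105564. Capitals mark the 11 bases of 5031410I06Rik that differ from Speer4a or have no partner there. The identity was 96.7% over 299 aligned bases.
Speer4a: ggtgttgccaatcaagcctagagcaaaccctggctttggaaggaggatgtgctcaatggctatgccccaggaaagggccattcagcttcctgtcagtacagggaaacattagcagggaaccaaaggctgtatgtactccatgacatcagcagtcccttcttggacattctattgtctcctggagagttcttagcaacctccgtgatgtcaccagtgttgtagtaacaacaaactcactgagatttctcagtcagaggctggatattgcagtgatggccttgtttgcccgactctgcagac
5031410I06Rik: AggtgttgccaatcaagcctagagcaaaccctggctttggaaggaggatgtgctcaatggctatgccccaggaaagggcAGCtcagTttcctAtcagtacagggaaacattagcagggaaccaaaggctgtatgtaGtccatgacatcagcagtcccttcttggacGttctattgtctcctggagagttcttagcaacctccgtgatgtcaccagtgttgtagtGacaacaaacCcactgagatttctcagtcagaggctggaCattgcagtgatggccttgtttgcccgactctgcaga

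The 3 pseudogenes are shown against Rrs1 (chr1:9545408-9547455, plus strand) by the 120-base stretch of the GENCODE M21 transcripts in which they matched best without a gap, bases 911 to 1030 of the Rrs1 transcript, inside its coding sequence. Capitals mark bases that differ from Rrs1: 4 in Gm21168 (bases 797 to 916 of its transcript), 3 in Gm5067 (775 to 894) and 2 in Gm6089 (687 to 806).
Rrs1: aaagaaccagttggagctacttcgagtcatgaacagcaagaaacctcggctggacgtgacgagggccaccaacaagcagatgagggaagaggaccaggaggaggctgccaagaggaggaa
Gm21168: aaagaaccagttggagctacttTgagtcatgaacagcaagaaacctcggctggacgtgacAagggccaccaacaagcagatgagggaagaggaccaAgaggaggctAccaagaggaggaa
Gm5067: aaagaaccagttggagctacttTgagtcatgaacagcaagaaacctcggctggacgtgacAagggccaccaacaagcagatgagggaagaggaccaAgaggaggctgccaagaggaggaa
Gm6089: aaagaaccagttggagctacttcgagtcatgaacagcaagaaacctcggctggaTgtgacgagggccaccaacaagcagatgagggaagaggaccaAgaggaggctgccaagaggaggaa

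5031410I06Rik (ENSMUSG00000051940, chr5:26098668-26105362, minus strand) had the largest rise of any member in zQ175. It is a member through those libraries: its mean CPM without TMM scaling was 0.261 in wild type and 7.33 in zQ175 at 12 weeks. At 12 weeks its level was 0, 0.284 and 0.527 CPM in the wild-type pools (lowest, median, highest) and 5.27, 7.46 and 10.2 CPM in the zQ175 pools. The lowest zQ175 pool thus stood well above the highest wild-type pool. The log2 fold change was 4.78 ± 0.47, adjusted p = 1.25e-04 (edgeR). At 1 year the wild-type pools of the same line had 0.667, 0.971, 0 and 0.900 CPM, and the zQ175 pools had 5.20, 2.27, 1.37, 5.24 and 1.36 CPM. The groups again did not overlap, but the log2 fold change of 2.32 ± 1.02 did not pass the test, adjusted p = 0.416. Without wild-type replicate 4 at 1 year it was 1.90, adjusted p = 0.481. Over both ages in 1 fit the log2 fold change was 3.67 ± 0.59, adjusted p = 0.00554. In the R6/2 line the gene was too low to be tested at either age alone, with group medians of 0.190 and 0.315 CPM in wild type and 0 in R6/2 at both ages. The zQ175 effect exceeded the R6/2 effect at 12 weeks by 6.76 ± 1.2 on the log2 scale, adjusted p = 1.69e-04 (edgeR).

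Each of the 3 Rrs1-like pseudogenes rose in zQ175 at 12 weeks, and at 1 year none of them was called. Gm5067, the most abundant, went from 10.2, 10.9 and 15.9 CPM in wild type (lowest, median, highest) to 26.6, 30.0 and 37.5 CPM in zQ175. Its log2 fold change was 1.33 ± 0.13, adjusted p = 1.25e-04 (edgeR). At 1 year the wild-type pools had 10.1, 7.36, 7.82 and 6.41 CPM and the zQ175 pools 11.4, 9.78, 6.34, 7.50 and 10.4 CPM, so the groups overlapped and the log2 fold change was 0.25, adjusted p = 0.838 (0.23, adjusted p = 0.92, without wild-type replicate 4). The difference between the effects at the 2 ages, -1.11 on the log2 scale, did not pass the test (adjusted p = 0.0669). Over both ages the log2 fold change of Gm5067 was 0.85, adjusted p = 0.0203, a call lost (adjusted p = 0.0525) without wild-type replicate 2 at 12 weeks.

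Gm6089 went from 0.947, 1.60 and 2.35 CPM in wild type to 6.69, 8.09 and 10.2 CPM in zQ175 at 12 weeks. The log2 fold change was 2.27 ± 0.24, adjusted p = 2.38e-04 (edgeR), and the groups did not overlap. At 1 year wild type had 1.85, 2.07, 0.111 and 1.90 CPM and zQ175 had 0.823, 0.924, 1.16, 0.556 and 2.13 CPM, with log2 fold change -0.38, adjusted p = 0.927 (-0.77, adjusted p = 0.848, without wild-type replicate 4). The low wild-type value was that of replicate 4, and the 2 groups overlapped there.

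Gm21168 went from 2.95, 3.75 and 5.19 CPM to 8.06, 8.96 and 14.4 CPM at 12 weeks, log2 fold change 1.26 ± 0.19, adjusted p = 0.0151 (edgeR), again with no overlap. Leaving out wild-type replicate 2, 4 or 6 ended that call (adjusted p = 0.0524, 0.0518 and 0.0553). At 1 year wild type had 4.26, 3.19, 2.55 and 4.19 CPM and zQ175 had 5.35, 4.09, 2.17, 2.90 and 4.12 CPM. The 2 groups covered nearly the same range, and the log2 fold change was 0.12 (-0.03 without wild-type replicate 4). Rrs1 itself, on chromosome 1, was at 23.3, 28.4 and 36.2 CPM in wild type and 28.2, 32.2 and 39.0 CPM in zQ175 at 12 weeks, with adjusted p = 0.762, so its groups overlapped while those of the 3 copies did not.

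Because reads are shared within the cluster, sums over like copies were also taken. At 12 weeks the 3 pseudogenes summed to 14.7, 16.6 and 22.4 CPM in wild type (lowest, median, highest) and to 43.4, 45.7 and 62.1 CPM in zQ175. At 1 year the sums were 10.5, 12.6 and 16.2 CPM against 9.68, 14.8 and 17.6 CPM. The pseudogene sums were thus apart at 12 weeks and overlapped at 1 year. The 12 Speer4a-like genes other than 5031410I06Rik showed another pattern: 18.1, 22.8 and 39.3 CPM against 18.9, 28.5 and 35.6 CPM at 12 weeks, and 16.3, 26 and 37.5 CPM against 3.13, 6.47 and 14.2 CPM at 1 year. At 1 year every zQ175 pool lay below every wild-type pool in that sum. It leaves out the gene with the largest rise in zQ175, which favours lower zQ175 sums. With 5031410I06Rik kept, the sums of the 13 genes overlapped at 1 year. They were 16.9, 26.4 and 38.4 CPM in wild type and 5.4, 9.37 and 19.4 CPM in zQ175. No single gene of the cluster was called at that age. The median log2 fold change of the 14 cluster genes tested at 1 year was -1.61 (-1.46 without wild-type replicate 4).

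**Figure D2:**
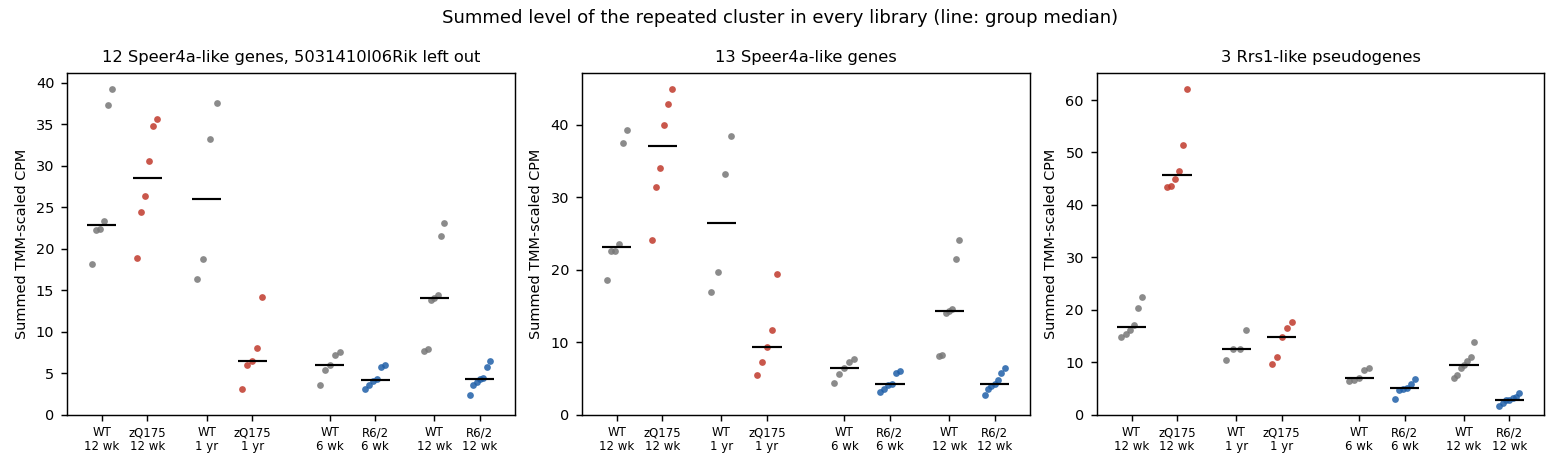
Summed TMM-scaled CPM of the repeated cluster in each library (points) with group medians (lines), for the 12 Speer4a-like genes without 5031410I06Rik, for all 13, and for the 3 Rrs1-like pseudogenes. The pseudogene sums of zQ175 at 12 weeks are 43.4 to 62.1, above the 14.7 to 22.4 of wild type, and those at 1 year overlap.

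Outside the cluster, Slc35f6 and Add1 were the members called in zQ175, and both were lower. Slc35f6 (chr5:30647933-30659729, plus strand), a member of a solute carrier family, had 61.6, 77.3 and 85.2 CPM in wild type at 12 weeks (lowest, median, highest) and 46.1, 47.2 and 53.8 CPM in zQ175. Every zQ175 pool lay below every wild-type pool. The log2 fold change was -0.68 ± 0.09, adjusted p = 0.0038 (edgeR). At 1 year wild type had 57.7, 61.0, 40.8 and 66.5 CPM, with replicate 4 the low one, and zQ175 had 45.0, 48.5, 41.6, 57.4 and 50.8 CPM. There the groups overlapped, and the log2 fold change was -0.17 ± 0.17 with adjusted p = 0.776 (-0.31, adjusted p = 0.59, without wild-type replicate 4). Slc35f6 was also lower in R6/2 at 12 weeks, from 76.1, 81.0 and 90.3 CPM to 62.9, 69.6 and 80.7 CPM. That fall was -0.26 ± 0.07 on the log2 scale, adjusted p = 0.00783, and smaller than in zQ175 by 0.44 (difference of effects -0.44, adjusted p = 0.00482).

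Add1 (chr5:34573664-34632308, plus strand) encodes alpha-adducin, which caps actin filaments and joins them to spectrin under the membrane, and it was the most abundant member. At 12 weeks wild type had 672, 789 and 949 CPM and zQ175 488, 689 and 704 CPM. At 1 year wild type had 467, 458, 427 and 641 CPM and zQ175 286, 335, 325, 405 and 364 CPM, so every zQ175 pool was below every wild-type pool at that age. Neither age alone passed the test (log2 fold changes -0.32 ± 0.10 and -0.49 ± 0.14, adjusted p = 0.183 and 0.199), and both ages together did, at -0.41 ± 0.09, adjusted p = 0.0303 (edgeR). Without wild-type replicate 4 the value at 1 year was -0.58, adjusted p = 0.297. The call over both ages was lost without any one of 6 of the 21 libraries, with adjusted p up to 0.0738 without wild-type replicate 5 at 1 year. The others were wild-type replicate 2 and zQ175 replicate 2 at 12 weeks and zQ175 replicates 3, 4 and 6 at 1 year. In R6/2 the fall was larger. At 6 weeks the 5 wild-type pools of Add1 had 1070, 1074, 1010, 1021 and 1104 CPM against 375, 703 and 824 CPM in R6/2, and at 12 weeks 1001, 1065 and 1247 CPM against 353, 567 and 672 CPM. The groups were apart at both ages, with log2 fold changes of -0.66 ± 0.15 (adjusted p = 0.0245) and -1.04 ± 0.11 (adjusted p = 6.43e-07). At 12 weeks the difference between the zQ175 and R6/2 effects was 0.71, adjusted p = 0.00152. The mature oligodendrocyte markers fell with Add1 in R6/2, 10 of 11 of them called lower at 6 weeks and 11 of 11 at 12 weeks, and their part in its fall was not tested.

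**Figure D3:**
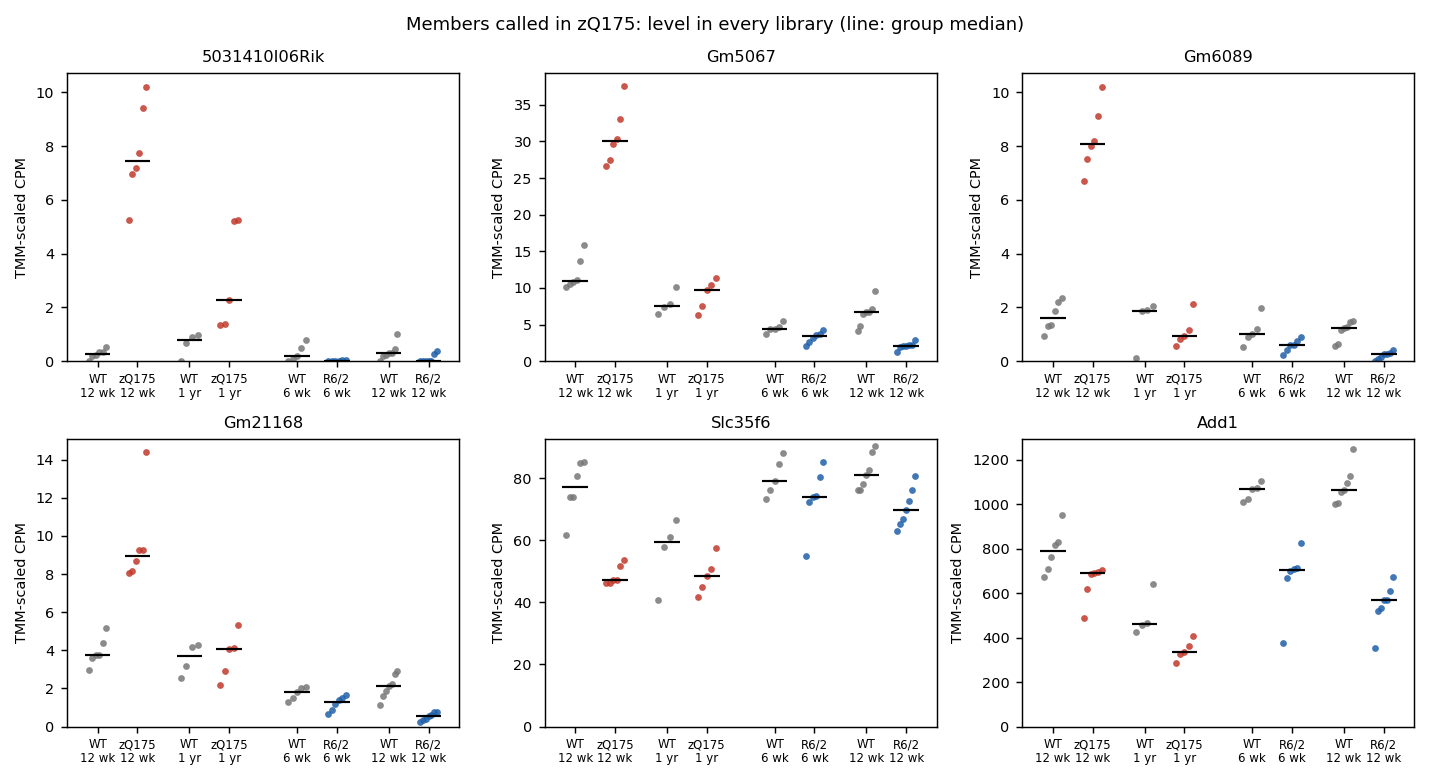
TMM-scaled CPM of the 6 members called in zQ175 in each of the 46 libraries (points), with group medians (lines), zQ175-line groups on the left and R6/2-line groups on the right of each panel. 5031410I06Rik and the 3 pseudogenes are high in zQ175 at 12 weeks, while Slc35f6 and Add1 are lower there and in R6/2 at 12 weeks.

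Fitting both zQ175 ages together gave 4 calls among the 146 members (2.74%), with Gm5067 and 5031410I06Rik higher and Slc35f6 and Add1 lower. 5031410I06Rik entered through its high zQ175 level in libraries of this fit, so its call was built in. Of the 140 members whose wild-type mean alone reached the minimum, 1 rose and 2 fell. Over all 16535 genes 0.835% were called, 0.212% higher and 0.623% lower. With either wild-type replicate 5 at 1 year or wild-type replicate 2 at 12 weeks left out, 2 members remained. The 2 ages share no library, and 92 of 144 members (63.9%) had the same sign of fold change at both, against 55.6% of all genes (91 of 144 without wild-type replicate 4). At 1 year alone edgeR called 0 of 144 members, 19 had an unadjusted p below 0.05 (13.2% against 11.4% of all genes), limma voom called 0 and DESeq2 called 4. Over all genes at 1 year edgeR called 0.00669%, limma voom 7 of 14951 and DESeq2 398 of 14951. Without wild-type replicate 4 the count of calls stayed at 0, with 17 members at an unadjusted p below 0.05. In simulated data of that size, 31% of genes changed by 3-fold and 1% of genes changed by 1.5-fold were recovered.

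Counting the members whose zQ175 and wild-type libraries did not overlap gave a wider set. At 12 weeks there were 8 of 146, 6 higher and 2 lower (5.48%, against 1.53% of all genes): the 5 called members, and Gm21655, Dok7 and Kmt2c, which were not called. Of these, 5031410I06Rik and Gm21655 are members through their zQ175 level. There were 11 of 144 at 1 year, 7 higher and 4 lower (7.64%, against 5.2%), none of them called. At 1 year 17 members did not overlap without wild-type replicate 4, and leaving out zQ175 replicate 5 or wild-type replicates 2 or 3 gave 17, 18 and 19. Groups of fewer libraries fail to overlap more easily for any gene. Shares over all genes are not given for these smaller groups. 5031410I06Rik and Dok7 stood apart at both ages. Kmt2c, which encodes a histone H3 lysine 4 methyltransferase, had 53.2, 59.5 and 64.1 CPM in wild type and 34.1, 43.8 and 52.6 CPM in zQ175 at 12 weeks, log2 fold change -0.45 ± 0.11, adjusted p = 0.101 (edgeR). Fndc4, which encodes a secreted fibronectin domain protein and was singled out after its values were seen, had 16.2, 14.6, 16.8 and 10.7 CPM in wild type and 21.7, 31.7, 24.6, 29.1 and 31.3 CPM in zQ175 at 1 year, log2 fold change 0.97 ± 0.21, adjusted p = 0.111 (1.03, adjusted p = 0.226, without wild-type replicate 4). Nat8l, the enzyme that makes N-acetylaspartate, had 0.593, 1.94, 0 and 0.0693 CPM in wild type and 4.53, 3.55, 2.51, 3.37 and 2.62 CPM in zQ175 at 1 year, log2 fold change 2.36, adjusted p = 0.442 (1.94, adjusted p = 0.546, without wild-type replicate 4). In these 3 the groups did not overlap at the age given, and none passed the test.

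Dok7, 0.14 Mb from Htt, was higher in R6/2 at both ages. It encodes an adaptor that activates the muscle receptor kinase MuSK, and lies at chr5:35056766-35087839 on the plus strand. In R6/2 at 6 weeks the wild-type pools had 6.02, 7.73, 5.66, 8.22 and 6.99 CPM and R6/2 had 25.6, 39.2 and 49.1 CPM (lowest, median, highest). At 12 weeks wild type had 4.80, 5.97 and 6.21 CPM and R6/2 35.9, 43.9 and 56.1 CPM. All R6/2 pools were above all wild-type pools at both ages, with log2 fold changes of 2.43 ± 0.18 (adjusted p = 7.59e-06) and 2.92 ± 0.11 (adjusted p = 2.27e-11, edgeR). In zQ175 at 12 weeks Dok7 went from 3.65, 5.06 and 6.32 CPM to 7.89, 9.97 and 25.6 CPM, the last a single pool far above the others. At 1 year wild type had 2.3, 8.83, 0.111 and 7.13 CPM and zQ175 12.3, 9.10, 9.96, 11.9 and 12.8 CPM, again without overlap. The zQ175 log2 fold changes of 1.32 ± 0.27 and 1.32 ± 0.73 did not pass the test (adjusted p = 0.0848 and 0.538), nor did 1.3 ± 0.35 over both ages (adjusted p = 0.0714). DESeq2 called Dok7 at 12 weeks (adjusted p = 9.94e-04). Without wild-type replicate 4 at 1 year the value at 1 year was 0.90, adjusted p = 0.548, and that over both ages passed at adjusted p = 0.0344. It passed also without wild-type replicate 3 at 1 year, at adjusted p = 0.0441. The R6/2 effect at 12 weeks was larger than the zQ175 effect (difference -1.62 ± 0.29, adjusted p = 1.68e-04).

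The 10 members nearest to Htt, 5 on each side, did not move as a block. On the lower-coordinate side Grk4 (a kinase of G protein-coupled receptors), Nop14 (a ribosome assembly factor) and Mfsd10 (a membrane transporter) were called in none of the 4 comparisons, Add1 fell in R6/2 as given above, and the unnamed transcript Gm42867 fell in R6/2 at 12 weeks by 1.32 on the log2 scale, adjusted p = 0.017 (edgeR). Nop14 had 15.1 to 20.5 CPM in wild type and 21.3 to 25.8 CPM in zQ175 at 1 year, without overlap, with adjusted p = 0.421 (0.587 without wild-type replicate 4). On the other side, Rgs12 (a regulator of G protein signalling) rose in R6/2 at 12 weeks from 3.53, 6.11 and 7.76 CPM to 6.99, 11.2 and 16.8 CPM, 0.81 ± 0.19 on the log2 scale, adjusted p = 0.00215. Dok7 rose as given. Lrpap1, a chaperone of lipoprotein receptors, rose by a small and steady amount: at 6 weeks from 173, 181 and 194 CPM in wild type (lowest, median, highest) to 209, 220 and 238 CPM in R6/2, and at 12 weeks from 159, 161 and 180 CPM to 195, 213 and 240 CPM. Its groups were apart at both ages, with log2 fold changes of 0.31 ± 0.07 (adjusted p = 0.0183) and 0.33 ± 0.06 (adjusted p = 3.15e-04). Trmt44, a transfer RNA methyltransferase, and Acox3, a peroxisomal oxidase, were called in no comparison. None of the 10 was called in zQ175 at either age alone.

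In R6/2 at 6 weeks 10 of 140 members tested were called, 5 higher and 5 lower, which is 7.14% against 4.66% of all genes (2.33% in each direction). Under 2 Mb from Htt 6 of 48 were called (12.5%), and on the rest of chromosome 5 5.56%. Besides Dok7, Lrpap1 and Add1 they included Htra3, Dpysl5 and Wdr1, which rose, and Sh3bp2, Fbxl5 and Hs3st1, which fell. The count depended on single libraries: it was 3 without R6/2 replicate 3, 5 and 6 without R6/2 replicates 4 and 5, 4 without wild-type replicate 6, and 6 without any one of wild-type replicates 1, 2, 3 and 4. All 10 were called in the same direction at 12 weeks, where they were 13.7% of the 73 calls. At 12 weeks 38.1% of all genes were called, and the like share over all genes called at 6 weeks is not given here. Of 139 members, 97 (69.8%) had the same sign of fold change at both ages, against 68.6% of all genes. The 2 ages share no library. No overlap was seen for 7 of 140 members at 6 weeks (5%, against 5.91% of all genes), and at 12 weeks for 32 of 142 (22.5%, against 17.8%).

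In R6/2 at 12 weeks many members changed, as did many genes elsewhere. Of 142 members tested, 29 rose and 44 fell, 51.4% against 38.1% of all 14952 genes (19% higher and 19.1% lower). The cluster made up 11 of the 44 that fell, and outside it 29 rose and 33 fell of 129. The share was 47.9% under 2 Mb from Htt, 52.7% at 2 to 5 Mb, 38.5% at 5 to 10 Mb without the cluster, and 35.6% on the rest of chromosome 5. The median log2 fold change was -0.09 over members and -0.03 over all genes. Over both R6/2 ages 26 rose and 38 fell of 145, 44.1% against 30.3% of all genes (15.7% higher and 14.6% lower).

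**Figure D4:**
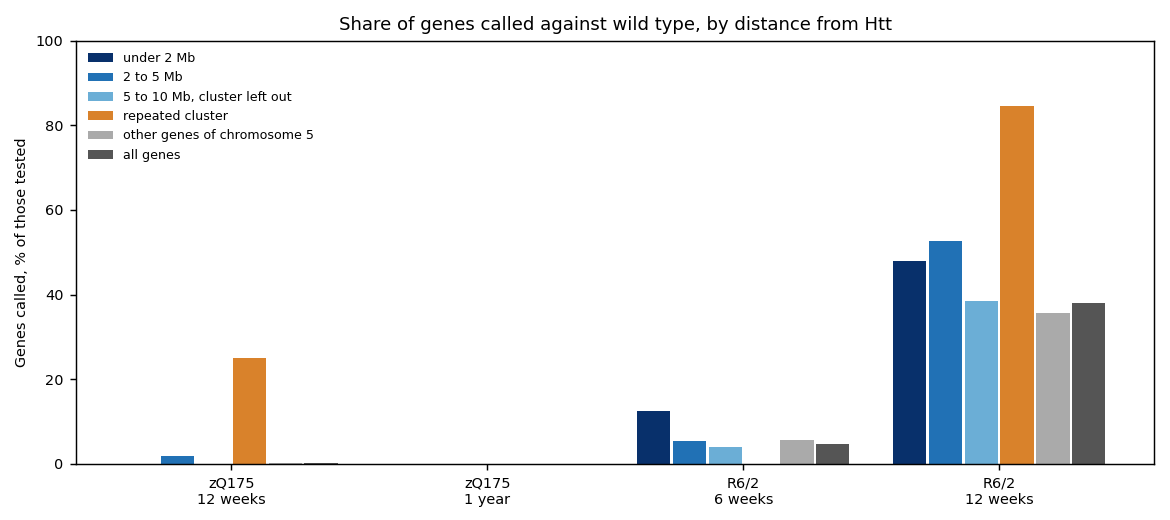
Share of genes called at an adjusted p below 0.05, in % of those tested, for members by distance from Htt, for the repeated cluster, for other genes of chromosome 5 and for all genes, in each comparison of genotype. In R6/2 at 12 weeks the cluster stands at 84.6% and the members under 2 Mb at 47.9%, against 38.1% of all genes.

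The cluster, of which 4 genes rose in zQ175 at 12 weeks, fell in R6/2 at 12 weeks. A lower median was not particular to R6/2. In zQ175 at 1 year the median log2 fold change of the cluster was -1.61 over 14 genes, with none called. In R6/2 at 12 weeks 11 of its 13 tested genes were called lower and none higher, with a median log2 fold change of -1.84. Over all genes 19.1% were called lower. As the copies share reads, their calls are not independent of each other. Gm5067 went from 4.17, 6.66 and 9.52 CPM to 1.3, 2.10 and 2.90 CPM, log2 fold change -1.68 ± 0.21, adjusted p = 5.39e-06 (edgeR). Gm6089 went from 0.582, 1.25 and 1.51 CPM to 0.0173, 0.279 and 0.420 CPM, log2 fold change -2.38 ± 0.50, adjusted p = 0.00103. In both, every R6/2 pool was below every wild-type pool. The 12 Speer4a-like genes other than 5031410I06Rik summed to 7.67, 14 and 23.1 CPM in wild type and 2.35, 4.26 and 6.44 CPM in R6/2, and the 3 pseudogenes to 6.99, 9.52 and 13.8 CPM against 1.68, 2.76 and 4.06 CPM. At 6 weeks none of 12 tested was called (edgeR), and none had an unadjusted p below 0.05. The zQ175 and R6/2 effects at 12 weeks differed for 10 of the 16 cluster genes, all with the zQ175 effect the higher. Over all genes 21.2% differed, 10.4% with the zQ175 effect higher. Of the 10, 5031410I06Rik and Gm21655 are members through their zQ175 level.

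Among signalling genes, 7 of 21 members of the list rose in R6/2 at 12 weeks and 5 fell, with a median log2 fold change of -0.09, beside 19% higher, 19.1% lower and a median of -0.03 over all genes tested. Jakmip1, which binds Janus kinases and microtubules, had the largest rise of any member, from 0.187, 0.456 and 1.03 CPM to 3.06, 5.49 and 7.19 CPM, 3.13 ± 0.34 on the log2 scale, adjusted p = 1.39e-06 (edgeR). Of its exonic bases 46.9% are shared with Gm1043 on the same strand, so its counts are uncertain. Evc, part of the Hedgehog receptor machinery of cilia, went from 1.25, 2.41 and 5.04 CPM to 5.05, 9.89 and 17.2 CPM, 1.87 ± 0.31, adjusted p = 1.08e-04. Prkag2, a subunit of the energy-sensing kinase AMPK, rose by 0.69. Sh3bp2, an adaptor of immune receptor signalling, fell at 6 weeks from 15.6, 20.5 and 27.6 CPM (lowest, median and highest) to 8.98, 11.2 and 13.6 CPM and at 12 weeks from 10.8, 14.8 and 19.0 CPM to 6.43, 7.97 and 10 CPM. Its groups were apart at both ages, with adjusted p = 0.0151 and 6.56e-05. Fgfr3, a fibroblast growth factor receptor that also marks astrocytes, fell by 0.93, adjusted p = 0.00793. Of the 9 astrocyte markers, Fgfr3 among them, 2 rose and 6 fell in R6/2 at 12 weeks, and their summed level was 360 to 509 CPM in wild type and 481 to 684 CPM in R6/2. Their part in the fall of Fgfr3 was not tested.

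Among cytoskeletal, adhesion and cilium genes, 6 of 14 rose and 4 fell in R6/2 at 12 weeks, with a median log2 fold change of 0.25, beside 19% and 19.1% of all genes and a median of -0.03. Prom1, a protein of membrane protrusions, fell at 12 weeks from 16.3, 23.2 and 39.7 CPM to 4.01, 5.82 and 12.5 CPM, -1.88 ± 0.25, adjusted p = 1.44e-05 (edgeR), with no overlap between the groups. Emilin1, an extracellular matrix glycoprotein, fell by 1.51. The 5 fibroblast markers were all called lower in R6/2 at 12 weeks, summing to 230 to 659 CPM in wild type and 89.3 to 313 CPM in R6/2, and their part in the fall of Emilin1 was not tested. Wdr1, a cofactor of actin disassembly, rose by 0.46 at 6 weeks (adjusted p = 0.0446) and by 0.35 at 12 weeks (adjusted p = 0.00742). Crmp1, a phosphoprotein of axon guidance, rose by 0.62 at 12 weeks.

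Among genes of membrane traffic and protein handling, 7 of 23 rose and 8 fell at 12 weeks in R6/2, with a median log2 fold change of 0.01, beside 19% and 19.1% of all genes and a median of -0.03. Htra3, a secreted serine protease, rose at 6 weeks from 15.9, 19.6 and 23.1 CPM to 23.3, 27.8 and 29.6 CPM and at 12 weeks from 17.9, 19.8 and 28.6 CPM to 33.6, 42.8 and 47.4 CPM. Its groups were apart at both ages, with log2 fold changes of 0.49 ± 0.12 (adjusted p = 0.0326) and 0.90 ± 0.12 (adjusted p = 1.10e-05, edgeR). Fbxl5, an iron-sensing subunit of a ubiquitin ligase, fell from 474, 494 and 645 CPM to 273, 383 and 448 CPM at 6 weeks and from 510, 525 and 580 CPM to 293, 323 and 370 CPM at 12 weeks. It too was apart at both ages (adjusted p = 0.0271 and 6.52e-08). Nsg1, a neuronal endosomal protein singled out after its values were seen, rose at 12 weeks from 8.76, 12.7 and 26.3 CPM to 25.2, 35.2 and 40.9 CPM, 1.24 ± 0.20, adjusted p = 9.51e-05, with 1 wild-type pool inside the R6/2 range. Its exons share 17.9% of their bases with Stx18 on the other strand, and the kit does not record strand. Mrfap1, one of the abundant members, fell by 0.31, from 406, 412 and 446 CPM to 302, 341 and 423 CPM.

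The lists of nuclear and metabolic roles held calls in both directions, or lower ones alone, in R6/2 at 12 weeks, when 38.1% of all genes were called. Of 19 members in chromatin and transcription, 2 rose (Zfp513 and Zfp518b) and 3 fell (Ctbp1, Nsd2 and Rnf4). Nsd2, a histone H3 lysine 36 methyltransferase, went from 31.7, 36.9 and 42.6 CPM to 24.1, 31.4 and 33.6 CPM, -0.32 ± 0.10, adjusted p = 0.0166 (edgeR). Of 15 in DNA repair, replication and the cell cycle, Tyms, which makes thymidylate, rose and Ppp1cb, Uvssa, Haus3 and Rnf4 fell. Of 9 in RNA processing and translation, none rose and Rbm33, Eif2b4 and Cpeb2 fell. Of 12 in mitochondria and energy metabolism, Prkag2 and Nat8l rose and Khk, Mpv17 and Rbks fell. No gene of these 4 lists was called in R6/2 at 6 weeks or in zQ175 at either age alone.

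Values of 4 members that rose in R6/2 are given here beside the neuronal and progenitor markers, a choice made after their values were seen. Dpp6, an accessory subunit of Kv4 potassium channels, went from 1.15, 4.54 and 12.3 CPM in wild type to 24.1, 34.7 and 46.5 CPM in R6/2 at 12 weeks, 2.5 ± 0.39 on the log2 scale, adjusted p = 6.32e-05 (edgeR). Every R6/2 pool was above every wild-type pool. Its log2 fold change at 6 weeks was 0.23, and the effects at the 2 ages differed by 2.29, adjusted p = 0.0184. For Nsg1 the difference between ages was 1.70, adjusted p = 0.00341. Nat8l rose at 12 weeks by 1.49, adjusted p = 5.78e-04, and Dpysl5, of the same family as Crmp1, by 0.99 at 6 weeks and 0.70 at 12 weeks (adjusted p = 0.0329 and 0.0284). Of the 9 neuronal markers, 6 could be tested at 12 weeks, 3 rising and 1 falling. Their summed level was 44.7 to 59.6 CPM in wild type and 80.3 to 162 CPM in R6/2, of which Tubb3 was 33.8 to 47.7 and 69.2 to 151 CPM. Of the 11 progenitor markers 6 rose and 3 fell at that age. The part of either list in the rises of Dpp6, Nsg1, Nat8l and Dpysl5 was not tested.

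Over all 8 role lists together 101 of the 146 members were placed. In zQ175 at 12 weeks the only listed member called was Slc35f6, which stands in both the traffic and the membrane transport list. Of the 5 members in membrane transport, Dpp6 and Slc5a6 rose and Slc35f6 fell in R6/2 at 12 weeks.

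**Figure D5:**
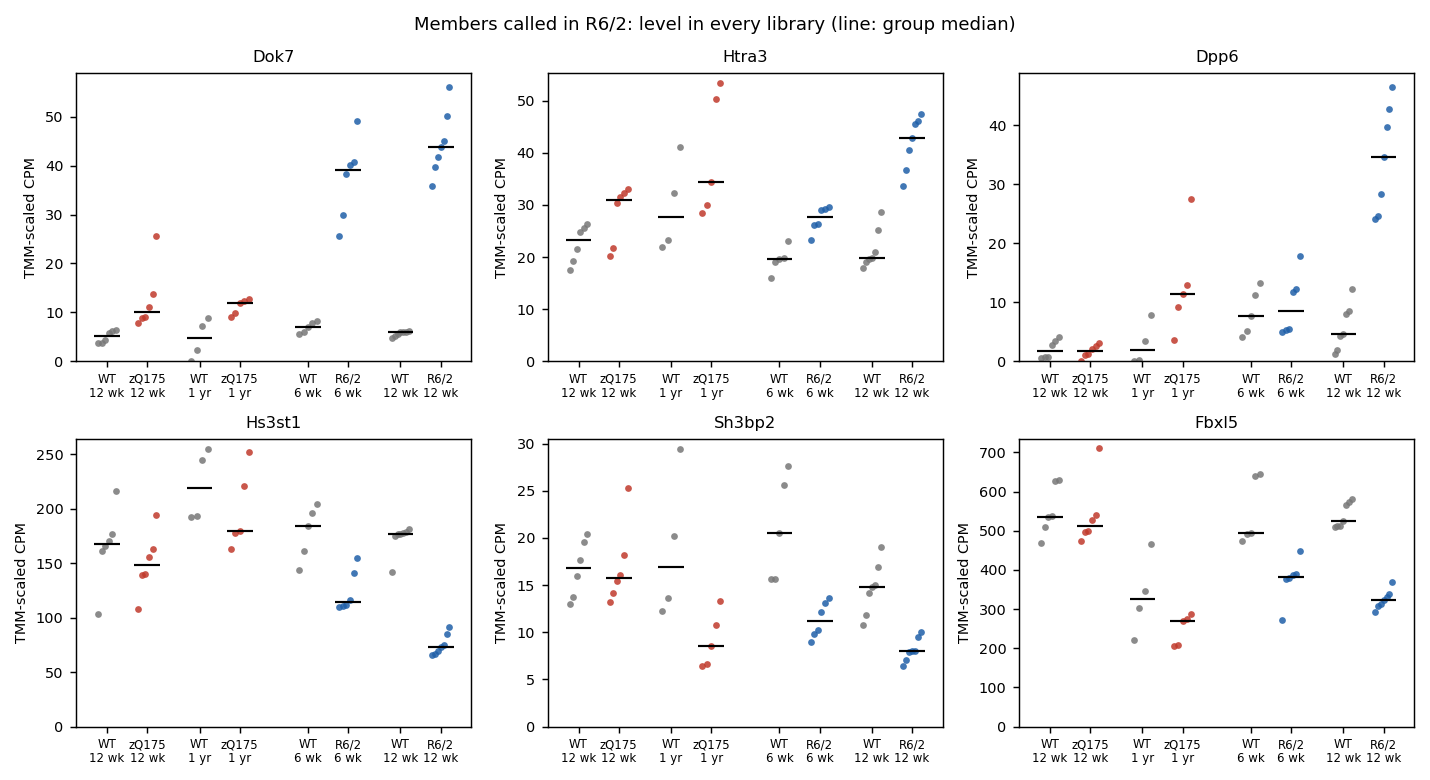
TMM-scaled CPM of 6 members called in R6/2 in each of the 46 libraries (points), with group medians (lines), zQ175-line groups on the left and R6/2-line groups on the right of each panel. Dok7 lies at 25.6 to 56.1 in R6/2 and at or under 8.22 in the wild type of that line, and Hs3st1, Sh3bp2 and Fbxl5 have lower medians in R6/2 at both ages.

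Age and line changed the size of some effects. Between the R6/2 effects at 12 and 6 weeks, 9 of 145 members differed, 4 upward and 5 downward (6.21%, against 6.04% of all genes, 2.85% upward and 3.19% downward). Hs3st1, a heparan sulfate sulfotransferase singled out after its values were seen, fell from 144, 184 and 204 CPM to 110, 114 and 155 CPM at 6 weeks and from 142, 177 and 181 CPM to 65.4, 73.2 and 91.8 CPM at 12 weeks. Its fall at 12 weeks, -1.25 ± 0.09, exceeded that at 6 weeks (difference -0.72, adjusted p = 0.00303, edgeR). Fndc4 rose at 12 weeks (0.93 ± 0.14, adjusted p = 5.25e-05), from 13.7, 15.5 and 22.4 CPM to 24.4, 33.0 and 40.4 CPM, and the difference between ages was 0.97, adjusted p = 0.0209. The count of 9 became 15 without R6/2 replicate 7 at 12 weeks or without R6/2 replicate 1 at 6 weeks. Between the zQ175 effects at 1 year and 12 weeks edgeR called 0 of 146 members (0.248% of all genes, 0.0726% upward and 0.175% downward), 26 had an unadjusted p below 0.05 (17.8% against 12.6%), limma voom called 0 and DESeq2 called 5. The 146 take in members that entered through their zQ175 level at 12 weeks, which favours a difference. The count of edgeR calls was 3 without wild-type replicate 3 at 1 year, 2 without wild-type replicate 1 at 12 weeks and 1 without zQ175 replicate 2 at 1 year.

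Between the lines at 12 weeks 42 of 146 members differed in effect, 25 with the zQ175 effect higher and 17 with it lower (28.8%, against 21.2% of all genes, 10.4% higher and 10.8% lower). Of these, 10 lay in the cluster. Among the others Emilin1, Prom1, Fgfr3 and Hs3st1 had the zQ175 effect higher, by 2.40, 1.60, 1.15 and 1.06 on the log2 scale, and Dpp6, Jakmip1, Evc and Nat8l had it lower, by differences of -2.83, -2.80, -2.13 and -1.92. The differences of Jakmip1, Evc and Nat8l were called in only 10, 14 and 14 of the 26 fits that each left out 1 library. Of the 25 with the higher zQ175 effect, 5031410I06Rik, Gm21655 and Fgfbp1 are members through their zQ175 level, which favours that direction. Jakmip1, also a member that way, lay among the 17. The count without such members is not given here. The lines also differ in how far the marker levels given above moved, and the part of those levels in the difference was not tested.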

How the data were processed

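RNA was measured in 46 pools of sorted striatal cells. The values the authors deposited are expected counts: RSEM shares a read between the genes it matches. 9.4% of the values were not whole. CASAVA, STAR 2.5.2b and RSEM 1.3.0 were used, per the submitters' processing notes, which also name the human build GRCh38, although the gene IDs are mouse. The mouse build and annotation used for counting are not given in the sources used here. Reads came from an unstranded kit. Of the 146 members, 47 share exonic bases with a gene on the other strand, and reads in the shared bases cannot be separated by strand. Over both strands, 58 members share bases with another gene and 8 share over 20% of theirs.

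Symbols and positions were looked up by gene ID in GENCODE M21 (53706 IDs matched and 95 did not), and promoters in the RefSeq table, which has 119 of the members. Counts were rounded, filtered for low values (filterByExpr), scaled by TMM and tested with the robust quasi-likelihood test of edgeR 4.0.16 (R 4.3.3), with Benjamini-Hochberg adjustment over all genes at 0.05. Each comparison of 1 age used the 2 groups compared. Effects over both ages, and differences between ages or between lines, came from fits of the 4 groups concerned, with mutant against wild type in each. Standard errors were the log2 fold change over the square root of F. Levels are TMM-scaled CPM on 1 scale over all libraries. The fits were tested on simulated data. RLE scaling, DESeq2 1.42.0, voom of limma 3.58.1, no filter, all 8 groups in 1 fit, a replicate block and leaving out each library were the alternatives.

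The named genes were members called in a zQ175 comparison, the 5 nearest to Htt on each side, the 6 largest changes in each direction in R6/2 at 12 weeks and the 3 largest at 6 weeks, the 3 highest levels, and a list by name. Further genes are marked where they appear. Counts cover all members, including a member that is not reported here. The members, the lists and this rule were chosen with earlier results of these data known. The labels place each litter's mice of 1 genotype in 1 pool, and p-values measure the spread between pools. Groups share replicate numbers, but samples of the same number did not deviate together (correlations of deviations from the group means from -0.14 to 0.18), so the numbers were not taken to pair them.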

Additional observations from a re-analysis of the deposited data

Results flagged for a closer look

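Outlying libraries were looked for in 31 genes, the members described above and Htt, over 248 sets of a gene and a group of 4 to 7 libraries, and 22 values stood farther from their group than Dixon's 95% limit, a limit that chance passes in about 1 of 20 such sets. In zQ175 at 12 weeks Dok7 was high in replicate 2 (25.6 CPM), Gm21168 high in replicate 4 (14.4), Fbxl5 high in replicate 6 (710) and Grk4 low in replicate 5 (1.47). In wild type at 1 year Gm6089 (0.111) and Mfsd10 (14.3) were low in replicate 4 and Dpysl5 was at 6.58 in replicate 5. In R6/2 at 6 weeks replicate 1 was low for Add1 (375) and high for Mfsd10 (32.2) and Gm42867 (1.23). In R6/2 at 12 weeks replicate 7 had Nop14 at 8.61, Mfsd10 at 26.5 and Dpysl5 at 5.88, and replicate 2 had Prom1 at 12.5. In wild type of the R6/2 line at 6 weeks the values were Trmt44 2.64 in replicate 1, Prom1 29.3 in replicate 2 and Nsg1 56.5 in replicate 6. In that line's wild type at 12 weeks they were Gm1673 0.728 in replicate 1, 5031410I06Rik 1.03 in replicate 6, and Hs3st1 142, Prom1 39.7 and Nsg1 26.3 in replicate 2.

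The zQ175 and R6/2 effects at 12 weeks differed (edgeR interaction, adjusted over all genes) for 20 of these 31 genes. Many of the 31 were named for calls in these same comparisons, so a high count was built in. Over all genes 21.2% differed. The difference was positive for 5031410I06Rik (6.76), Gm6089 (4.64), Gm21168 (3.27), Gm5067 (2.99), Prom1 (1.60), Hs3st1 (1.06), Sh3bp2 (0.88), Add1 (0.71) and Fbxl5 (0.71). It was negative for Dpp6 (-2.83), Jakmip1 (-2.80), Evc (-2.13), Nat8l (-1.92), Dok7 (-1.62), Gm1673 (-1.52), Htt (-1.42), Rgs12 (-1.0), Fndc4 (-1.0), Htra3 (-0.63) and Slc35f6 (-0.44). Among the same 31 genes, the R6/2 effects at 12 and 6 weeks differed for Dpp6 (2.29), Nsg1 (1.70), Fndc4 (0.97), Hs3st1 (-0.72) and Gm5067 (-1.19).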

How the results depend on the processing

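Changing the scaling or tool left most counts of called members within 1.5 times of the reported one. The exceptions follow, as members called. For zQ175 at 12 weeks (5 called, beside 12 of all 14372 genes), DESeq2 gave 8, beside 431 of those genes. With edgeR, 1 call remained both within 5 Mb of Htt and without the repeated cluster, the latter a choice made after seeing the data. Taking members by their wild-type mean alone, also chosen after seeing the data, gave 4 in zQ175 at 12 weeks, 3 over both ages and 72 in R6/2 at 12 weeks. For zQ175 at 1 year (0), DESeq2 gave 4 of 144, beside 398 of 14951 genes. All 8 groups in 1 fit gave 22 of 146, 10 higher and 12 lower, beside 1718 of 18157 genes. For both zQ175 ages (4, beside 138 of 16535 genes), DESeq2 gave 13 and voom 8, beside 558 and 213 of 16535 genes. All 8 groups gave 21, beside 1109 of 18157 genes. Of the 4, 2 lay within 5 Mb of Htt and 2 outside the cluster. For R6/2 at 12 weeks (73, beside 5704 of 14952 genes) all 8 groups gave 48, beside 4113 of 18157 genes. For both R6/2 ages (64) 42 lay within 5 Mb. The difference between lines (42) fell to 27 with all 8 groups. The difference between zQ175 ages (0) became 5 with DESeq2 and 5 with all 8 groups, and that between R6/2 ages (9) became 15 and 5. For these differences the shares over all genes under each alternative are not given here. With all 8 groups the spread is shared over groups of unequal spread, and the cause of these moves was not tested.

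Same-numbered replicates were not found to deviate together. With the replicate number as a block the counts were 3 for zQ175 at 12 weeks, 3 for R6/2 at 6 weeks, 0 for both zQ175 ages and 3 for the difference between R6/2 ages. Over all genes these were 4 of 14372, 224 of 14668 and 0 of 16470 for all but the last.

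Leaving out 1 library gave 4 to 5 calls for zQ175 at 12 weeks, 0 to 1 at 1 year, 2 to 6 over both ages, 3 to 12 for R6/2 at 6 weeks, 64 to 83 at 12 weeks, 58 to 69 over both, 35 to 58 for the difference between lines, 0 to 3 and 6 to 15 for those between zQ175 and R6/2 ages. Members without overlap were 8 to 11 and 12 to 19 in zQ175 at 12 weeks and 1 year, and 7 to 12 and 32 to 42 in R6/2 at 6 and 12 weeks. Leaving out a library makes a lack of overlap more likely for any gene, and shares over all genes are not given beside these counts. At 1 year in zQ175 the 1 call came without wild-type replicate 3, where 233 of 15389 genes were called. At 6 weeks in R6/2, 11 or 12 members were without overlap when R6/2 replicate 1 or 6 or wild-type replicate 1, 2 or 6 was left out.

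A sign turned in 3 results, none of them called. Gm21168 in zQ175 at 1 year was -0.01 (adjusted p = 0.997) by voom and -0.08 to 0.27 with 1 library left out. The difference between zQ175 ages for Htt was -0.80 to 0.28 with 1 library left out. The difference between R6/2 ages for 5031410I06Rik, 1.91 in the reported fit, was -0.31 (adjusted p = 0.949) by voom and -0.38 (adjusted p = 0.951) with the replicate block. The recovery of simulated 1.5-fold changes was 41% for zQ175 at 12 weeks, 13% for R6/2 at 6 weeks and 37% at 12 weeks, so a member not called may still have changed.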
